A study of Mus musculus with 8 samples.

Results

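The libraries compared here came from bone marrow-derived macrophages of mice that carry the Lsd1SA/SA knock-in, in which the histone demethylase LSD1 can no longer be phosphorylated at the mutated position. The comparison set the 2 knock-in libraries labelled as given lipopolysaccharide (LPS) for 2 h against the 2 untreated knock-in libraries, out of 8 libraries in the series. Members were chosen by position: all genes on the autosomes, which were 22168 of the 23366 genes in the deposited table. Of these, 11484 reached a normalised level of 1 in at least 2 libraries and were tested. The other 4 libraries, 2 untreated and 2 with LPS, came from wild-type macrophages. All cells were of C57BL/6 background at passage 1 and had been without serum for 24 h, and the labels give an LPS dose of 1 mg/ml. The untreated libraries are labelled 0 h. No label names the sex or age of the mice, and none says that the replicates are separate cultures or animals. The p-values therefore rest on the spread between these samples alone, and that spread may be technical. The titles of the knock-in LPS libraries give the time alone, and LPS is named in their treatment label.

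LPS coats Gram-negative bacteria. Macrophages sense it through TLR4 with the help of CD14 and MD-2. Signalling through the adaptor MyD88 activates NF-kB and AP-1, which switch on cytokines, chemokines and their own feedback inhibitors within the first hours. Signalling through the adaptor TRIF activates IRF3 and leads to interferon beta, which acts back on the cells through its receptor and JAK kinases and switches on the antiviral genes later. LSD1 removes methyl groups from histone H3 and works in complexes with CoREST and histone deacetylases. The title of the series places LSD1 between protein kinase C alpha and NF-kB in this response.

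The 2 knock-in LPS libraries stood apart from the other 6 in the sex-linked transcripts, which were not members. Xist, which is expressed from the inactive X chromosome of female cells, had a level of 0.366 and 0.212 there and of 315 to 437 elsewhere. Reads of 4 Y-linked genes, Uty, Ddx3y, Kdm5d and Eif2s3y, summed to 4993 and 5122 there and to at most 2 in each remaining library. The LPS-labelled knock-in cells were therefore from other animals than the untreated ones, and the sex and the individual animals cannot be told apart from the LPS label in any value given here. Library totals ran from 40379258 to 55595160 reads. Kdm1a, the gene for LSD1, was read at 33.7 and 32.6 in the untreated knock-in libraries and at 39.3 and 40.4 in those labelled LPS (log2 change 0.26 ± 0.06 (SE), limma adjusted p = 0.00156). Its level cannot show an amino acid substitution, so it does not check the genotype label. Csf1r, the receptor for the growth factor that macrophages depend on, stood at 1280.1 and 1266 without and 1304 and 1249.6 with LPS. The macrophage genes Lyz2, Cd68 and Mpeg1 had group means between 2001 and 7372 in the knock-in libraries. Lyz2 and Cd68 were lower with LPS, with log2 changes of -0.24 and -0.17 (limma adjusted p = 0.00194 and 0.00851, over 0.05 under 2 of 21 alternative settings each). For Mpeg1 the limma adjusted p was 0.103, and it was under 0.05 in 3 of 21 alternative settings. Actb, often taken as a constant gene, fell from 3624 and 3382 in the untreated libraries to 2333 and 2311 (log2 change -0.59 ± 0.05 (SE), limma adjusted p = 8.6e-10), while its change in wild type was 0.58 (limma adjusted p = 9.1e-10).

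Between the untreated and the LPS-labelled knock-in libraries, 3324 autosomal genes were higher and 3186 lower at a limma adjusted p under 0.05, which is 28.9% and 27.7% of the genes tested, or 56.7% together. All levels are the authors' scaled values, close in form to counts per 1000000 reads, and a log2 change is on the log2(level + 1) scale, which understates the change of low genes. The changes were mostly small. The median size over all tested genes was 0.23 and the median change was 0.02. A log2 change of at least 1 was reached by 296 of the higher and 389 of the lower genes, and one of at least 2 by 58 and 52. The share of genes called rose with the mean level, from 47.7% in the lowest of 4 equal bins of genes to 67.4% in the highest. Over the 19 autosomes it lay between 53.4% and 63.4%. Counts for the gene lists below are to be read beside the 28.9% higher, 27.7% lower and 56.7% called of all tested genes. These are bulk samples, in which fewer cells of a type and less RNA per cell cannot be told apart. The libraries of the 2 groups did not overlap in 79.3% of all tested genes, so a lack of overlap by itself marks no gene out.

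The same test on the wild-type libraries called 3100 genes higher and 3567 lower, 27.0% and 31.1% of those tested. The sizes differed in shape. In wild type, 761 genes rose by at least 1 and 307 by at least 2 on the log2 scale, and 460 and 33 fell by as much. The split between higher and lower in wild type depended on the scaling: 46.5% of the calls were higher with the authors' scaling, 35.4% after quantile normalization and 17.6% after division by plain library totals, which moved the median of all genes by -0.267. The same scaling moved the knock-in median by only -0.0425 (51.1% and 43.7% of its calls higher), and the median interaction by 0.229. The interaction, the change in the knock-in minus the change in wild type, passed the test for 63.7% of autosomal genes, 32.2% positive and 31.5% negative. Of the 296 genes that were higher by at least 1 in the knock-in, 225 had a positive and 53 a negative interaction. Of the 389 lower by at least 1, the interaction was negative for 376 and positive for 4. Of the 307 genes higher by at least 2 in wild type, 173 were also higher in the knock-in, 49 were lower and 85 did not pass. Their median change was 2.93 for the wild-type and 0.32 for the knock-in cells, and the interaction was negative for 303 of them. Across all 11484 genes the Pearson correlation of the changes in the 2 genotypes was 0.125 and the Spearman correlation 0.0429. Genes are not independent replicates, so this is a description only.

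**Figure D1:**
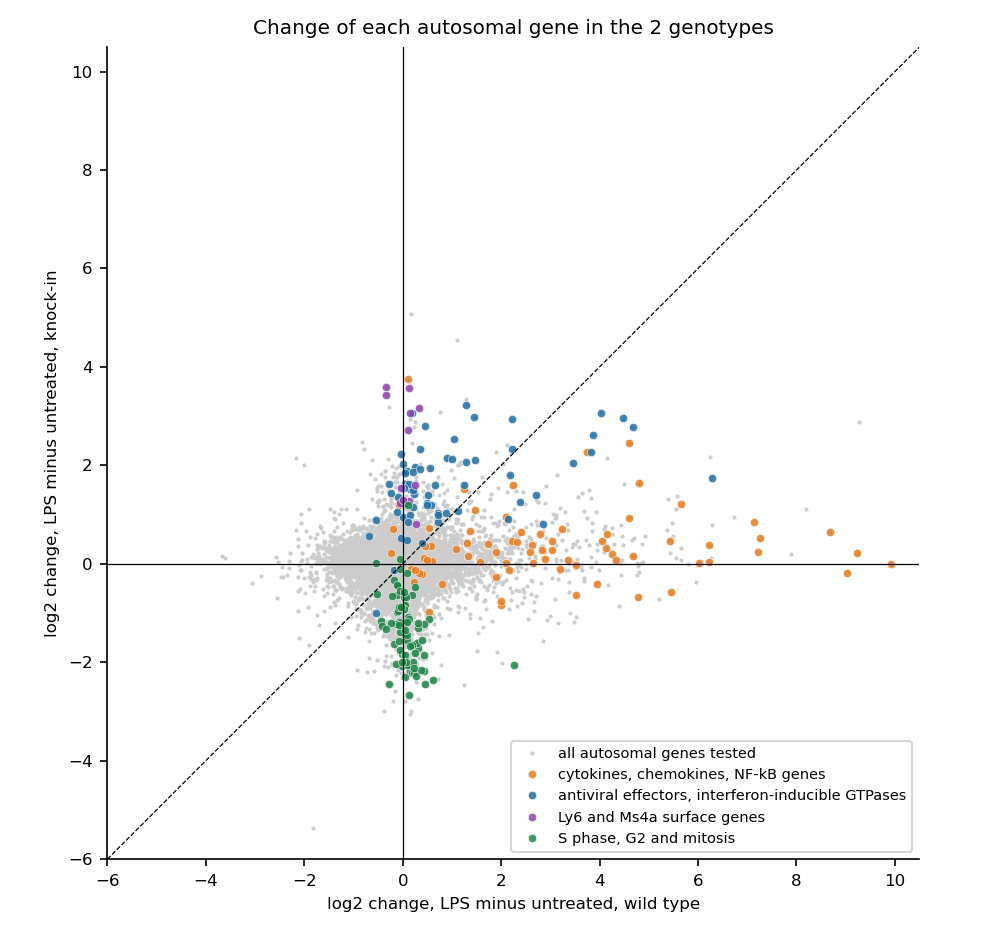
Each point is an autosomal gene, placed by its log2 change with LPS in wild type (x axis) and in the knock-in (y axis), with 4 sets of genes in colour. Dashes mark equal change. Many cytokine, chemokine and NF-kB genes lie far to the right and below the dashes, with exceptions such as Ccl8 at 3.76 in the knock-in. In the knock-in 46 of 48 antiviral effectors were called higher and 39 of 40 genes of G2 and mitosis lower.

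Tnf, Il1b and Cxcl2 each changed by less than 1 on the log2 scale in the knock-in libraries. Tnf, the cytokine tumor necrosis factor, rose from 26.8 and 26.4 in the untreated libraries to 48.7 and 48.5 (log2 change 0.85 ± 0.05 (SE), limma adjusted p = 3.4e-13). In wild type it went from 26.8 and 27.4 to 4039 and 3915. Il1b, the cytokine interleukin-1 beta, stood at 1.26 and 1.68 without and 1.77 and 1.18 with LPS in the knock-in, where the libraries of the 2 groups overlapped and the adjusted p was 0.993. Its wild-type libraries with LPS were at 2086 and 2318. Cxcl2, which attracts neutrophils, was at 2.00 and 1.98 and then 2.24 and 2.68 in the knock-in (log2 change 0.21, limma adjusted p = 0.0448, over 0.05 under 9 of 21 alternative settings, among them without either untreated library and without the second LPS library). Its change in wild type was 9.23. For these genes the 2 knock-in LPS libraries were far below both wild-type LPS libraries. Il6 had means of 0.0988 and 0.259, with an adjusted p of 0.25. Counted as reads, edgeR gave Il6 an adjusted p of 0.0263 and DESeq2 0.0203. Ptgs2, the inducible cyclooxygenase of prostaglandin synthesis, had an adjusted p of 0.159.

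**Figure D2:**
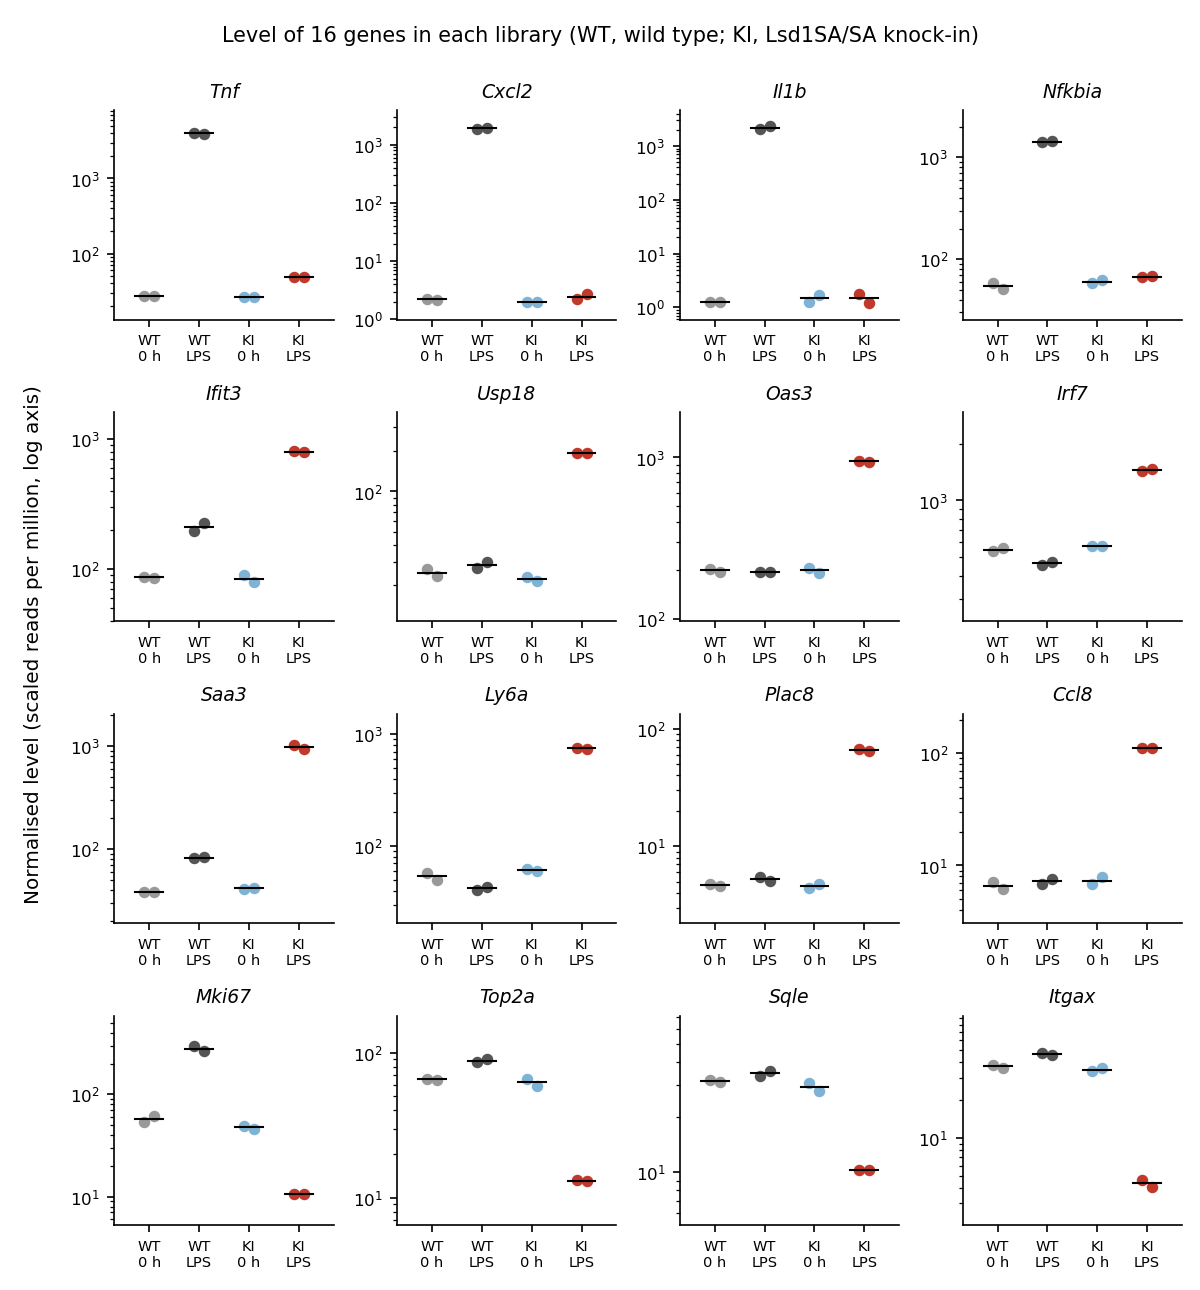
Level of 16 genes in every library on log axes, with the 2 libraries of each group as points and their mean as a line. Tnf, Cxcl2, Il1b and Nfkbia are high in the wild-type LPS libraries alone, while Usp18, Oas3, Irf7, Ly6a, Plac8 and Ccl8 are high in the knock-in LPS libraries alone, and Top2a, Sqle and Itgax are low there alone.

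Over the 23 cytokine genes tested, 9 were higher and 4 lower in the knock-in with a median change of 0.07, beside 20 higher and none lower in wild type with a median of 3.20. The interaction was negative for 20 of them. In the knock-in 56.5% of the cytokine genes were called, beside 56.7% of all autosomal genes tested. Tnfsf10, which encodes the death ligand TRAIL, had the largest increase at 1.19. The largest decreases were those of Igf1, a growth factor made by resting macrophages, at -1.17, and Il1rn, the antagonist of the interleukin-1 receptor, at -0.84. Il10, an anti-inflammatory cytokine, fell from 6.73 and 6.42 in the untreated libraries to 4.98 and 4.48 (log2 change -0.40, limma adjusted p = 0.000617). Its log2 change in wild type was 3.95, an increase. For Ifnb1, which encodes interferon beta, the knock-in libraries held 2 reads without and 56 reads with LPS, a ratio of 25.2 per unit of depth (95% exact counting interval 6.66 to 213). The 56 reads amount to levels of 0.463 and 0.565, while the wild-type LPS libraries held 45.4 and 43.0. Low counts in the table were mostly even, which can arise when both mates of a read pair are counted, and the interval would then be too narrow.

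Of 21 chemokine genes tested, 11 were higher and 6 lower in the knock-in (median 0.28), beside 17 and 0 in wild type (median 3.03). The increases were uneven and were led by chemokines of the CC family that attract monocytes. Ccl8 rose from 6.77 and 7.90 in the untreated libraries to 112 and 112 (log2 change 3.76 ± 0.09 (SE), limma adjusted p = 3.47e-20), whereas in wild type it stood at 7.07 and 6.11 without and 6.88 and 7.53 with LPS. Ccl7 rose by 2.45, Ccl12 by 2.27 and Ccl2 by 1.64 in the knock-in. For Ccl2, Ccl7 and Ccl12 the wild-type changes were larger, at 4.81, 4.60 and 3.75. Ccl5, already high in untreated cells, rose from 430.2 and 472 in the untreated libraries to 1281 and 1293 (log2 change 1.51), against 1.24 in wild type. Cxcl10, a ligand of CXCR3 induced by interferons, went from 1.72 and 1.81 to 3.55 and 3.14 in the knock-in, a log2 change of 0.65 against 8.68 in wild type. Of 7 chemokine receptors 3 were higher and 2 lower. Ccrl2 rose by 1.38 and Cxcr4, the receptor for CXCL12, by 1.11, while Ccr3 fell by 0.51 and Ccr1 fell by 0.36 on the log2 scale. Cxcr4 moved the other way in wild type, by -1.48.

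The NF-kB list of subunits, kinases and feedback genes had 32 members tested. In the knock-in 21 were higher and 3 lower, with a median of 0.29, and in wild type all 32 were higher, with a median of 2.28. The interaction was negative for 31 of the 32. Nfkbia, which encodes the inhibitor IkB-alpha and is itself an NF-kB target, stood at 58.3 and 61.8 without and 66.6 and 68.4 with LPS in the knock-in (log2 change 0.17, limma adjusted p = 0.0155, over 0.05 under 5 of 21 alternative settings, among them 0.151 without the first untreated and 0.0948 without the second LPS library). In wild type it reached 1402 and 1446. Tnfaip3, which encodes the deubiquitinase A20, rose by 0.47 in the knock-in and by 5.44 in wild type. The largest change in the list was that of Gadd45b, a stress-response gene, at 1.60, beside 2.24 in wild type. Tank, Cflar and Traf2 followed at 0.95, 0.70 and 0.67. Nfkbiz, which encodes a nuclear IkB protein needed for Il6 induction, fell from 26.7 and 25.3 in the untreated libraries to 15.9 and 18.3, whereas it rose by 5.44 in wild type. Of 20 Toll-like receptor and proximal signalling genes, 11 were higher and 4 lower in the knock-in. The lower count fell when any 1 knock-in library was left out, and it was 2 with DESeq2 on the recovered reads and 2 without the level filter. Cd14, the co-receptor for LPS, fell from 136 and 130.2 in the untreated libraries to 67.3 and 65.1 (log2 change -0.999 ± 0.05 (SE), limma adjusted p = 1.39e-14), while wild-type cells went from 133 and 126 to 1348 and 1421. Irak3, which restrains Toll-like receptor signalling, rose by 0.49 and Irak2 by 0.58. Tlr4, the LPS receptor itself, did not pass the limma test (85.7 and 81.4, then 95.3 and 86.2, adjusted p = 0.0922 and 0.0316 without the second LPS library).

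Immediate-early genes, whose transcription needs no protein synthesis, split in the knock-in, where 12 of 35 were higher and 13 lower and the median was near zero at 0.02. In wild type 27 were higher and 5 lower, with a median of 2.02. Egr1, a zinc finger factor induced by growth factor signalling, went from 6.34 and 7.16 in the untreated libraries to 3.43 and 3.97 in the knock-in and reached 306 and 299.6 in the wild-type LPS libraries. Egr2 fell from 34.4 and 34.7 in the untreated libraries to 6.94 and 8.63 (log2 change -2.02 ± 0.08 (SE), limma adjusted p = 3.06e-16) and rose by 2.02 in wild type. Myc, the growth regulator, fell by 1.76 and Klf2, a regulator of quiescence, fell by 1.03 on the log2 scale. Dusp1, the phosphatase that switches off p38, rose by 1.04 in the knock-in and by 3.93 in wild type.

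Other products of acute LPS stimulation were higher for 20 of 27 members and lower for 4 (2 without the first untreated knock-in library), with a median of 0.79, against 27 higher and 3.11 in wild type. Their largest increase was that of Saa3, the serum amyloid A protein made by macrophages, which rose from 41.2 and 42.2 in the untreated libraries to 1036 and 950.0 (log2 change 4.54 ± 0.05 (SE), limma adjusted p = 8.19e-27). Its wild-type LPS libraries stood at 81.9 and 83.0, and the interaction was 3.44 (limma adjusted p = 7.46e-22). Irg1, whose enzyme makes itaconate from a TCA cycle intermediate, rose from 6.87 and 7.70 in the untreated libraries to 62.5 and 56.7 in the knock-in. Its change of 2.87 compared with 9.26 in wild type. Clec4e, the receptor Mincle, rose by 2.16, and Cd69 by 1.498. Nos2, the inducible nitric oxide synthase, reached only 1.54 and 1.39, from 0.322 and 0.258.

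Interferon-inducible genes were among the largest increases. Of 48 antiviral effectors tested, 46 were higher and 1 was lower, and their median change was 1.60 beside 0.02 over all autosomal genes. In wild type 33 were higher and 4 lower with a median of 0.37. Ifit3, an RNA-binding inhibitor of viral translation, rose from 89.8 and 78.9 in the untreated libraries to 804 and 795 (log2 change 3.23 ± 0.06 (SE), limma adjusted p = 2.07e-22). Isg15, the ubiquitin-like modifier, rose from 18.5 and 17.3 in the untreated libraries to 152 and 163, and Usp18, the protease that removes it and dampens interferon receptor signalling, from 23.3 and 21.6 in the untreated libraries to 195 and 195. In all 3 genes both LPS libraries stood many fold above both untreated ones. Slfn4 rose by 2.99, Ifit1 by 2.97 and Mx1, an antiviral GTPase, by 2.94. Oas3, an enzyme that senses double-stranded RNA, rose from 206 and 192 in the untreated libraries to 955 and 932.

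The interaction for antiviral effectors went both ways, positive for 34 and negative for 9. Usp18 went from 26.3 and 23.3 to 27.1 and 29.7 in wild type, and Oas3 from 204 and 195 to 194 and 196, so both were high in the knock-in LPS libraries alone. Isg15 and Ifit1 rose more in wild type, by 4.02 and 4.47, with interactions of -0.96 and -1.50.

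All 17 guanylate-binding proteins and immunity-related GTPases, which attack the vacuoles of intracellular pathogens, were higher in the knock-in, with a median of 1.55. Tgtp1 and Tgtp2 rose by 2.15 and 2.12, but they are near-identical copies whose reads may have been split between them. Gbp6 rose from 37.1 and 34.1 in the untreated libraries to 155 and 158 and Gbp4 from 7.10 and 7.05 in the untreated libraries to 30.6 and 33.2. Near-identical Gbp copies carry the same uncertainty. In 3 of the 17 genes the wild-type change did not pass, and Gbp4 was one of them.

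The nucleic acid sensors were higher for 14 of 16 members, and none was lower. Ifi205 rose by 2.16, Ifi204 by 1.75 and Pyhin1 by 1.60, all members of the family of DNA-binding p200 proteins. Ddx58, which encodes the RNA sensor RIG-I, rose from 87.6 and 83.0 in the untreated libraries to 255 and 238. Upstream of these genes, the list of interferons, receptors, JAK-STAT and IRF factors had 14 members higher and 3 lower of 21. Stat2 and Irf9, factors that interferon signalling brings to promoters, rose by 1.58 and 0.77. Irf7, which amplifies interferon production, rose from 576 and 572 in the untreated libraries to 1440.4 and 1472 (log2 change 1.34 ± 0.04 (SE), limma adjusted p = 7.1e-18). In wild type Irf7 went from 540.3 and 557 to 457 and 470.0, with an interaction of 1.58 (limma adjusted p = 1.26e-16). Socs1, the feedback inhibitor of JAK kinases, rose by 1.24 in the knock-in.

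Genes for loading peptides onto MHC class I were higher for 21 of 23 members and lower for 2 (median 0.87). H2-Q7 rose from 86.2 and 100.3 in the untreated libraries to 346 and 421 and H2-Q6 by 2.01, and these sequences are alike enough that reads could be shared. H2-T22 rose by 1.77 and H2-T24 by 1.39. The peptide transporter Tap1 went from 123 and 125 in the untreated libraries to 307 and 296, and the immunoproteasome subunit Psmb9 changed by 1.16. The 2 members that fell were the chaperones Calr and Pdia3, at -0.93 and -0.45. The MHC class II list moved differently, with 2 of 9 members higher and 4 lower. The invariant chain Cd74 fell from 205 and 213 in the untreated libraries to 151 and 145, H2-Eb1 fell by 0.51 and Ciita, the class II transactivator, fell by 0.59 on the log2 scale.

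Promoter sequences are shown for 3 of these genes because IRF factors bind a direct repeat, the interferon-stimulated response element (ISRE). The core searched was GAAANNGAAA on either strand. Each stretch is the 250 bases before the RefSeq transcription start on GRCm38.p6, written 5′ to 3′ in the direction of the gene, with matches in capitals. Ifit3 lies at chr19:34583279-34583528, plus strand, Isg15 at chr4:156200819-156201068, minus strand and Oas3 at chr5:120777660-120777909, minus strand.
Ifit3: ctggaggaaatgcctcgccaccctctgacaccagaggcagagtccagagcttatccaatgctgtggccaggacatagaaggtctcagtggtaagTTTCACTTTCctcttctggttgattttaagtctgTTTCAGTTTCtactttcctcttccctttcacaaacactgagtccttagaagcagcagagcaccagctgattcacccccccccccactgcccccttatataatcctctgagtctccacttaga
Isg15: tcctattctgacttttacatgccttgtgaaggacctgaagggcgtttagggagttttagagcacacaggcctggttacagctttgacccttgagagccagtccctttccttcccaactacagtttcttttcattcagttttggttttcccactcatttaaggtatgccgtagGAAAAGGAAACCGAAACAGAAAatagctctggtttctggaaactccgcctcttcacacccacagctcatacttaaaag
Oas3: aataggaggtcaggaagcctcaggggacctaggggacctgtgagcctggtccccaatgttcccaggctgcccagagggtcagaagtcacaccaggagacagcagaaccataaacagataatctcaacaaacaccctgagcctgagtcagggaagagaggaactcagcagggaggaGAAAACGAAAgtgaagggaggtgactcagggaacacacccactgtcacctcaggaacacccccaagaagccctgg
The Ifit3 stretch holds 2 matches on the opposite strand, with first bases 156 and 122 before the start. The Isg15 stretch holds 3 overlapping matches, at 78, 72 and 66 bases before the start, and the Oas3 stretch 1 at 75 bases. For all shares the RefSeq windows were used, from 250 bases before to 50 after a start, and 8547 of the 11484 tested genes had one, 10887 windows in all. The ISRE core was in 3.22% of all these windows. It was in 18 of 43 windows of the antiviral effectors (41.9%) and in 9 of 11 windows of the GTPases (81.8%). These windows cover 37 of 48 antiviral effectors and 10 of 17 GTPases. Both near-identical copies Tgtp1 and Tgtp2 are among the matches. Among genes higher by at least 1 the ISRE core was in 58 of 265 windows (21.9%), and among genes lower by at least 1 in 16 of 347 (4.61%). None of the 12 windows of Ly6 and Ms4a genes held it. A kB-like motif, GGGANNTTCC, was in 1.53% of all windows, in 6 of 265 windows of the genes higher by at least 1 and in 4 of 14 chemokine windows. A match is a description of the letters and shows no binding.

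**Figure D3:**
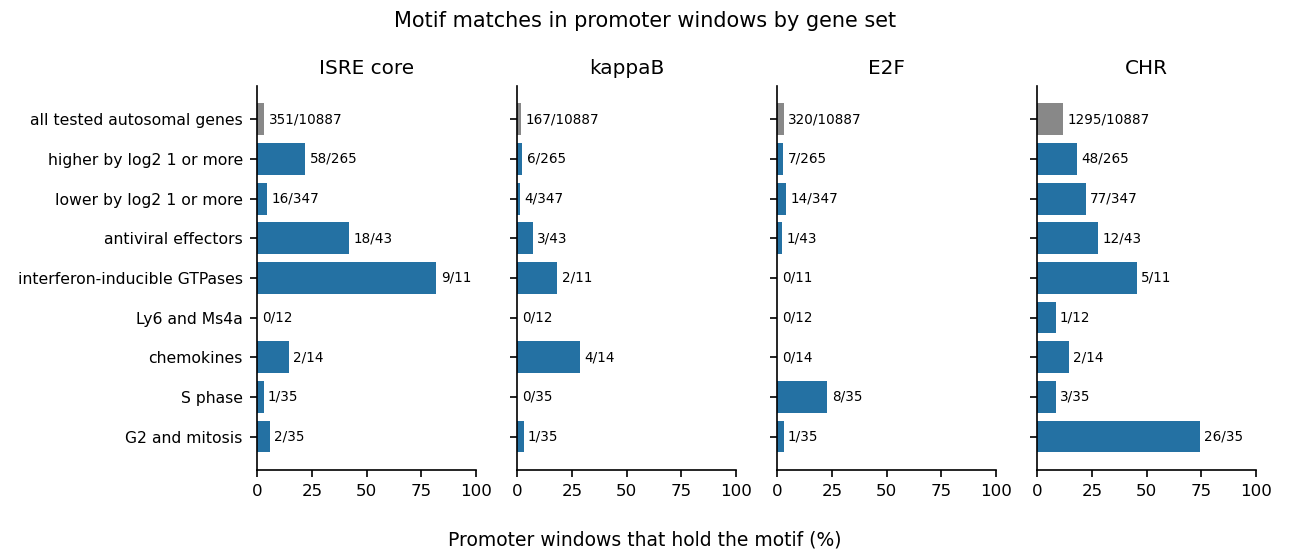
Bars give the percentage of promoter windows that hold each of 4 motifs, by gene set, with counts of windows beside them, and the grey bar is all tested autosomal genes. The ISRE core is most frequent in the interferon-inducible GTPases (9 of 11 windows) and the CHR motif in the G2 and mitosis genes (26 of 35).

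A second set of increases lay in small surface proteins of the Ly6 and Ms4a families. All gene lists here, this one included, were put together with earlier results of these data known, so their directions are not independent evidence. All 12 tested members of the Ly6 and Ms4a list were higher in the knock-in (median 2.16), and the interaction was positive for all 12. Ly6a, known as the stem cell antigen Sca-1, rose from 61.8 and 60.2 in the untreated libraries to 759.7 and 740.2 (log2 change 3.60 ± 0.06 (SE), limma adjusted p = 1.53e-23), and in wild type it fell from 57.5 and 50.1 to 40.9 and 43.1. Plac8, a small cysteine-rich protein of myeloid cells, rose from 4.43 and 4.74 in the untreated libraries to 66.6 and 64.5. Ms4a4c, a membrane protein with several spans, rose from 36.9 and 35.5 in the untreated libraries to 413 and 382. In each of these 3 genes both knock-in LPS libraries stood above all other 6 libraries. Ly6c1 and Ly6c2 rose by 3.16 and 3.06 and Ly6i by 2.72, and reads of these close copies may have been shared.

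Acute-phase and antimicrobial proteins were higher for 10 of 15 members and lower for 1. Beside Saa3, Slpi, an inhibitor of neutrophil proteases, rose from 3.88 and 4.34 in the untreated libraries to 40.3 and 44.6. Lcn2, which binds bacterial siderophores, rose by 0.95 and Ctss, a lysosomal cathepsin, by 0.97. Of 15 complement genes 10 were higher and 3 lower. The components C4b and Cfb rose by 1.85 and 1.69 and the inhibitor Serping1 by 1.32. Fc receptors split. Fcgr1, the high-affinity IgG receptor, rose from 288 and 286 in the untreated libraries to 927 and 898, and the inhibitory receptor Fcgr2b by 1.20, while Fcgr3 fell by 0.82 and Fcgrt, which recycles IgG, fell by 0.83 on the log2 scale.

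The lists of G2 and mitosis and of DNA replication and S phase had the lowest medians of the 40 pathway lists. Of 40 genes of G2 and mitosis, 39 were lower and 1 higher in the knock-in (median -1.78), and the interaction was negative for 39. In wild type 13 were higher, none was lower and 27 did not pass, with a median of 0.15. Mki67, the proliferation antigen Ki-67, fell from 49.1 and 45.9 in the untreated libraries to 10.7 and 10.6 (log2 change -2.06 ± 0.07 (SE), limma adjusted p = 9.32e-18). In wild type it went from 53.7 and 61.8 to 294 and 263, the largest increase of the list there (2.25). Top2a, the topoisomerase of chromosome condensation, fell from 66.3 and 59.4 in the untreated libraries to 13.3 and 12.9. Stmn1, a microtubule destabiliser, fell from 88.8 and 91.4 in the untreated libraries to 12.9 and 13.8. In all of these both LPS libraries were below both untreated ones by several fold. Cenpf of the kinetochore changed by -2.45, the ubiquitin-conjugating enzyme Ube2c by -2.44, the spindle midzone protein Prc1 by -2.36 and Birc5, or survivin, by -2.30. The exception was Pttg1, which encodes securin and rose from 20.2 and 22.1 in the untreated libraries to 49.1 and 49.6.

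DNA replication and S phase genes were lower for 34 of 37 members and higher for none, with a median of -0.95. The interaction was negative for 31. In wild type 4 were higher and 6 lower, with a median of -0.05. The ribonucleotide reductase subunit Rrm2 fell from 29.3 and 27.2 in the untreated libraries to 5.71 and 5.24, the thymidine kinase Tk1 fell by 2.08 on the log2 scale and Uhrf1, which maintains DNA methylation, fell by 2.06. The helicase subunit Mcm5 fell from 58.8 and 59.8 in the untreated libraries to 17.8 and 19.2. Among G1 cyclins, kinases and inhibitors 14 of 21 were lower and 3 higher. Cdkn1c, the inhibitor p57, fell from 17.6 and 17.5 in the untreated libraries to 1.60 and 1.78 (log2 change -2.79 ± 0.10 (SE), limma adjusted p = 1.78e-17) and Cdkn2c, the inhibitor p18, fell by 1.46, whereas cyclin D2 (Ccnd2) rose by 1.47.

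Promoters of 3 of these genes are shown for the cell cycle homology region (CHR, TTTGAA), which the DREAM and MYB-MuvB complexes bind in genes of G2 and mitosis, and for the E2F sites TTTGGCGC and TTTCCCGC of S phase genes. Both strands were searched. The stretches are again the 250 bases before a RefSeq start on GRCm38.p6. Cdk1, the mitotic kinase, lies at chr10:69352913-69353162, minus strand, Ube2c at chr2:164769679-164769928, plus strand and Mcm5 at chr8:75109259-75109508, plus strand.
Cdk1: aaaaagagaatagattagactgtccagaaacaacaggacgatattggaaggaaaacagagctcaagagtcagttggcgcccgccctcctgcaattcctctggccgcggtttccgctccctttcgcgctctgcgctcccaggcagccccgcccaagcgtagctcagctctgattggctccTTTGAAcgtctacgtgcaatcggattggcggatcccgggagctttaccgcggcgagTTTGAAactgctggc
Ube2c: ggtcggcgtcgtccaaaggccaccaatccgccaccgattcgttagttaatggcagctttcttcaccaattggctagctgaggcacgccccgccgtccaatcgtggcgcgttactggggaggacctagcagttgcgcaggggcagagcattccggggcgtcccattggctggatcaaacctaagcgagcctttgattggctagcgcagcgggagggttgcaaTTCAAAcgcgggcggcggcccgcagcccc
Mcm5: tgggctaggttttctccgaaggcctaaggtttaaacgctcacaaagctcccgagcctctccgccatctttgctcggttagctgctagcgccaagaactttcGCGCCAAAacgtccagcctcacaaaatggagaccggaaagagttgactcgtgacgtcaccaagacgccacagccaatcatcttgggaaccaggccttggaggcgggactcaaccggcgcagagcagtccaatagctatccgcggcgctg
Capitals mark the CHR in Cdk1 and Ube2c and the E2F site in Mcm5, which lies on the opposite strand. Cdk1, which fell by 1.61 on the log2 scale, holds a CHR at 71 and at 15 bases before the start, and Ube2c holds 1 at 29 bases, on the opposite strand. The CHR was in 11.9% of all windows, in 26 of 35 windows of the G2 and mitosis genes (74.3%) and in 3 of 35 windows of the S phase genes (8.57%). The E2F sites were in 2.94% of all windows, in 8 of 35 S phase windows (22.9%) and in 1 of 35 G2 and mitosis windows (2.86%). The CHR was in 77 of 347 windows of all genes lower by at least 1 (22.2%) and in 48 of 265 windows of those higher by at least 1 (18.1%). It was also in 12 of 43 windows of the antiviral effectors (27.9%) and in 5 of 11 windows of the GTPases (45.5%).

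Genes of lipid synthesis were lower as well. Of 21 genes of sterol synthesis and uptake 17 were lower and none higher (median -0.59), and the interaction was negative for the same number, 17. Sqle, squalene epoxidase, fell from 30.6 and 27.7 in the untreated libraries to 10.3 and 10.3 (log2 change -1.41 ± 0.07 (SE), limma adjusted p = 6.1e-14). In wild type it stood at 31.7 and 31.1 without and 33.6 and 35.6 with LPS. The log2 changes of Stard4, a sterol carrier, and Idi1 were -1.04 and -1.03. Of 11 genes of fatty acid synthesis 10 were lower and none higher. The desaturase Scd2 fell from 126 and 113 in the untreated libraries to 27.7 and 23.6 and the synthase Fasn fell by 1.01. LXR targets and efflux genes were lower for 6 of 11 and higher for 3. The lipid transporter Abca9 fell from 41.4 and 41.8 in the untreated libraries to 4.40 and 3.83 (log2 change -3.06 ± 0.08 (SE), limma adjusted p = 4.27e-20) and Abca1, which exports cholesterol, fell by 1.02, while Apoc2 rose by 1.39.

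Lysosomal genes were divided, with 11 of 25 higher and 8 lower. Ctss rose from 6869 and 6944 in the untreated libraries to 13867 and 13168, while the glycosidases Gusb and Glb1 fell, with log2 changes of -0.77 and -0.69. Of the vacuolar ATPase, which acidifies lysosomes, 2 of 14 subunits were higher and 7 lower, and 2 isoform subunits changed most. Atp6v0d2, which is needed for macrophage fusion and osteoclasts, fell from 278 and 282 in the untreated libraries to 47.3 and 44.6 (log2 change -2.58 ± 0.05 (SE), limma adjusted p = 1.83e-21). Atp6v0a1 fell by 1.19, and the remaining 12 subunits lay between -0.32 and 0.19.

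In glucose metabolism 9 of 22 members of the HIF-1 and glycolysis list were higher and 7 lower, and the lower count was 4 without the second LPS library. Vegfa, the vascular growth factor, rose from 31.8 and 33.2 in the untreated libraries to 102 and 95.7, the glycolytic activator Pfkfb3 by 1.10 and Hk2 by 0.59, whereas Pdk1, which blocks pyruvate entry into the TCA cycle, fell by 1.04 on the log2 scale. Within the TCA cycle list Irg1 was the exception among small changes, and Idh1 and Idh2 fell, with log2 changes of -0.74 and -0.53. Of the TCA cycle list 58.8% were called, near the 56.7% of all autosomal genes tested. The integrated stress response, which halts translation and raises amino acid supply, was higher for 12 of 18 members and lower for 3. The amino acid transporters Slc3a2 and Slc7a5 rose by 1.02 and 0.80 and the kinase-like regulator Trib3 by 0.94, while the serine synthesis gene Psat1 fell by 1.25. Among heat shock genes the endoplasmic reticulum chaperone Hspa5 had the largest change and fell from 629.8 and 639 in the untreated libraries to 303 and 295. Antioxidant genes under NRF2 were lower for 10 of 16 and higher for 2. Ephx1, an epoxide hydrolase, fell from 19.6 and 20.2 in the untreated libraries to 2.33 and 1.75 (log2 change -2.79 ± 0.10 (SE), limma adjusted p = 5.86e-17), and the catalase gene Cat fell by 1.10 on the log2 scale.

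**Figure D4:**
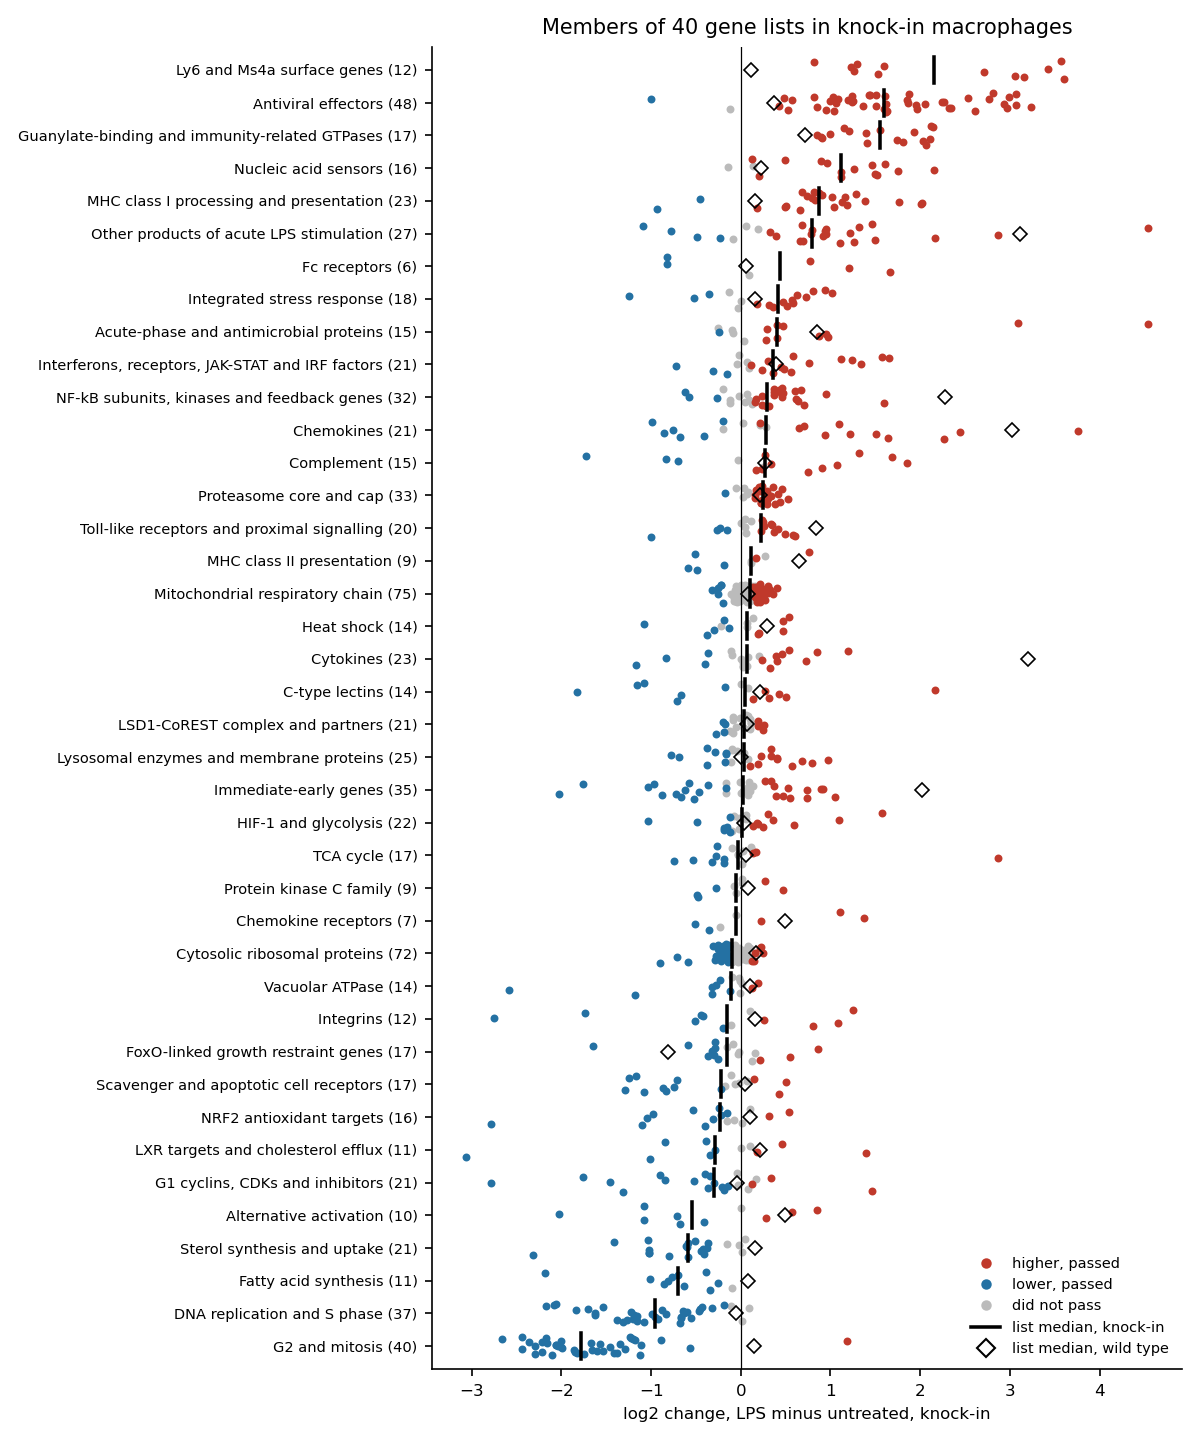
Log2 change in the knock-in of every tested member of 40 gene lists, ordered by the list median (bar), with the wild-type list median as an open diamond and the number of members in parentheses. Interferon-inducible lists and Ly6 and Ms4a genes lie at the top, cell cycle and lipid synthesis at the bottom, and the wild-type medians are largest for cytokines, chemokines and other acute LPS products.

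Surface receptors moved in both directions. Of 17 scavenger and apoptotic cell receptors 9 were lower and 3 higher. Cd5l, a secreted scavenger protein, fell from 1025 and 1054 in the untreated libraries to 432 and 415 and Stab1 fell by 1.25 on the log2 scale. Timd4, the phosphatidylserine receptor of resident macrophages, was low throughout and fell from 1.33 and 1.64 in the untreated libraries to 0.0386 and 0.176. Of 12 integrins 6 were lower and 4 higher. Itgax, the alpha chain CD11c, fell from 33.9 and 36.2 in the untreated libraries to 4.65 and 4.04 (log2 change -2.76 ± 0.08 (SE), limma adjusted p = 3.62e-19) and Itgb3 fell by 1.73, whereas Itgb7 rose by 1.25 and Itgal, the alpha chain of LFA-1, by 1.08. Of 14 C-type lectins 6 were higher and 6 lower, together 85.7% beside 56.7% of all autosomal genes tested. Clec4e rose, as given above, and the mannose receptor Mrc1 fell from 754 and 691 in the untreated libraries to 349.6 and 334, and the beta-glucan receptor Clec7a fell by 1.16. Egr2, the scavenger receptor gene Cd163 (log2 change -1.08) and Mrc1 were the leading decreases among 10 genes of alternative activation, of which 6 were lower and 3 higher. Il4ra, the receptor chain for interleukin-4, rose by 0.85. The macrophage identity list had 6 of 23 members higher and 10 lower. Its lineage factor Pparg fell by 0.79 on the log2 scale, and Cebpb rose by 0.82.

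Of 21 members of the LSD1-CoREST complex and its partners 4 were higher and 4 lower, and leaving out any 1 knock-in library left 1 or 2 lower. The deacetylases Hdac1 and Hdac2 and the corepressor Rcor1 did not pass (limma adjusted p = 0.213, 0.724 and 0.228). The largest change was that of Chd4, a remodeller of the NuRD complex, at -0.28. The share called in this list was 38.1%, below the 56.7% of all autosomal genes tested. Among 9 protein kinase C genes 2 were higher and 3 lower, and the higher count was 0 or 1 when any 1 knock-in library was left out. Prkca, which encodes protein kinase C alpha, was low, at 3.65 and 2.40 without and 1.91 and 1.82 with LPS (limma adjusted p = 0.00764, and 0.234 without the first untreated knock-in library). Prkcb fell by 0.49 on the log2 scale. Among the protein kinase C genes 55.6% were called, near the share of all genes. The FoxO-linked growth restraint genes were lower for 8 of 17 and higher for 3. Sesn1 led them, falling from 129 and 132 in the untreated libraries to 43.4 and 38.8, and it also fell in wild type, with a log2 change of -1.89. Txnip, which limits glucose uptake, changed by -1.73 in wild type, against -0.29 for the knock-in cells. Fbxo32, a ubiquitin ligase subunit, changed by -3.68 in wild type and did not pass in the knock-in (limma adjusted p = 0.2).

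The list medians of the housekeeping complexes moved little. The share called was 50% for ribosomal proteins and 41.3% for the respiratory chain, below the 56.7% of all autosomal genes tested. Of 72 cytosolic ribosomal protein genes 30 were lower and 6 higher with a median of -0.10, and the lower count was 16 to 33 when single knock-in libraries were left out (16 without the second untreated library, 17 without the first LPS library). Rpl10a, Rpl3 and Rpl12 fell most, with log2 changes of -0.91, -0.71 and -0.59, though processed pseudogenes of these genes can share reads. The respiratory chain had 25 of 75 higher and 6 lower (median 0.11), and the higher count fell to 12 without the first untreated and to 14 without the second LPS library. Of 33 proteasome subunits 27 were higher and 1 lower (median 0.25), so 84.8% were called, above the share of all autosomal genes tested. Psmb3 rose from 53.9 and 59.8 in the untreated libraries to 79.4 and 85.3 and Psmd4 by 0.46. In wild type 27 proteasome subunits were also higher and none lower (median 0.21).

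Some genes moved in opposite directions in the 2 genotypes. In the knock-in 1006 genes were higher that were lower in wild type. They made up 30.3% of the knock-in's higher genes, and 31.1% of all tested genes were lower in wild type. They made up 28.2% of wild type's lower genes, beside 28.9% of all tested genes higher in the knock-in. Another 800 were lower that were higher in wild type (25.1% and 25.8%, beside 27.0% and 27.7% over all tested genes). These overlaps were thus near the shares over all genes. A pair of overlapping genes was among the largest of these. Lrrc14b rose from 94.8 and 92.7 in the untreated libraries to 409 and 426, while in wild type it fell from 89.1 and 89.6 to 19.5 and 18.5. Ccdc127 followed it closely, at 2.000 in the knock-in and -1.999 in wild type. The 2 genes overlap on opposite strands, and since the counting is not known to use strand, their reads cannot be told apart. Pou3f1, a POU domain factor, rose from 14.8 and 15.6 in the untreated libraries to 75.1 and 87.2 in the knock-in and changed by -0.78 in wild type. Olfml3, a secreted glycoprotein, rose from 12.6 and 13.6 in the untreated libraries to 128 and 126 and changed by -0.28 in wild type (limma adjusted p = 0.00764, and 0.212 without the first wild-type LPS library). Rhov, Rapgef3 and Gpr157 rose by 1.12, 1.003 and 0.82 in the knock-in and changed by -1.91, -2.06 and -2.06 in wild type. In the other direction Cd83, a maturation marker, fell from 62.5 and 62.5 in the untreated libraries to 46.9 and 45.5 in the knock-in and rose to 1141 and 1191 in wild type. Pcdh7, Gpr85, Slc7a2 and Phldb1 fell in the knock-in, with log2 changes of -1.57, -1.19, -1.09 and -0.86, against increases of 2.84, 3.47, 3.52 and 4.40 in wild type. Gas7, which organises actin, fell from 139.5 and 131 in the untreated libraries to 24.8 and 22.4 and rose by 1.25 in wild type.

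Some of the largest changes were outside the pathway lists. Slco2b1, an organic anion transporter, fell from 18.1 and 18.8 in the untreated libraries to 1.47 and 1.43, Mamdc2 fell by 2.99 on the log2 scale, Efr3b fell by 2.44 and the calcium-binding protein S100a4 fell from 77.3 and 84.5 in the untreated libraries to 14.5 and 14.4. The apolipoprotein L genes Apol9b and Apol9a rose by 2.95 and 2.77, as near-identical copies. Ifi27l2b had the largest decrease of all, from 43.3 and 48.2 in the untreated libraries to 0 and 0.282 (log2 change -5.37 ± 0.85 (SE), limma adjusted p = 1.03e-05, and 0.0839 with the robust variance trend). It also differed between wild-type libraries of one group, at 12.5 and 43.5 without and 45.4 and 0.0452 with LPS, so wild-type replicates differed as widely as the knock-in groups did.

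Markers of other cells that a bone marrow culture can hold were read as summed levels over all members of a list, tested or not. Monocyte markers summed to 147 and 153 in the untreated and 364 and 372 in the LPS knock-in libraries, with 5 of 11 higher and 3 lower, and Ly6c2 and Plac8 made up most of the rise against a fall of S100a4, while Ccr2, the receptor of inflammatory monocytes, did not pass (limma adjusted p = 0.0684, and 0.0458 without the first LPS library). Stromal and fibroblast markers summed to 94.0 and 95.1 without and to 137 and 137 with LPS, with 13 of 15 higher and 1 lower. They reached 491 and 531 in the wild-type LPS libraries, though only 2 of 15 were higher there and 2 lower. The wild-type changes had a median of -0.05 and a maximum of 3.09. Col1a1, a collagen chain, rose from 5.10 and 4.56 in the untreated libraries to 17.2 and 20.2 and Col3a1 by 1.46, and Lum had no reads in 3 of the 4 knock-in libraries. Neutrophil markers went from 549.9 and 559 to 766 and 774 in the knock-in, with 12 of 16 higher and none lower, led by Mmp8 at 1.47. In wild type they went from 542 and 559 to 1066 and 1090, also with 12 of 16 higher and none lower. Mast cell and basophil markers in the knock-in summed to 37.2 and 38.1 without and to 89.2 and 92.2 with LPS. There 7 of 8 were higher, and Tpsb2 and Mcpt4 had no read. In wild type 7 of 8 were higher too, with sums of 69.1 and 69.2 with LPS. Of the endothelial genes 2 of 7 reached the tested level, of which Kdr rose by 1.72 and Pecam1 by 0.33 in the knock-in. The call of Pecam1 was lost without the first untreated or the second LPS library, where its change was 0.28. All 7 genes summed to 16.9 and 17.7 without and to 38.5 and 38.9 with LPS. Dendritic cell markers fell from 40.9 and 43.9 to 7.15 and 7.79, 4 of 5 lower, mostly through Itgax. Osteoclast markers fell from 451 and 461 to 266 and 273, mostly through Atp6v0d2, with 2 of 7 higher and 3 lower. Acp5 rose by 0.57 on the log2 scale, while Ctsk did not pass (limma adjusted p = 0.374). B, T and NK cell markers summed to 14.0 and 15.5 and then 7.85 and 9.03, and erythroid and megakaryocyte markers to 191 and 198 and then 162 and 170.3. Several defining markers were below the tested level in these libraries, among them Flt3, Zbtb46 and Clec9a of dendritic cells, Cd3e of T cells, Klf1 of erythroid cells and Cdh5, Tek, Tie1, Egfl7 and Emcn of endothelium. Tie1 went from 12 and 18 reads in the untreated to 2 and 0 reads in the LPS knock-in libraries. All these sums are small beside that of the macrophage identity genes, 20343 and 21041 without and 18787 and 19491 with LPS. The part that other cells had in the differences above was not tested.

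**Figure D5:**
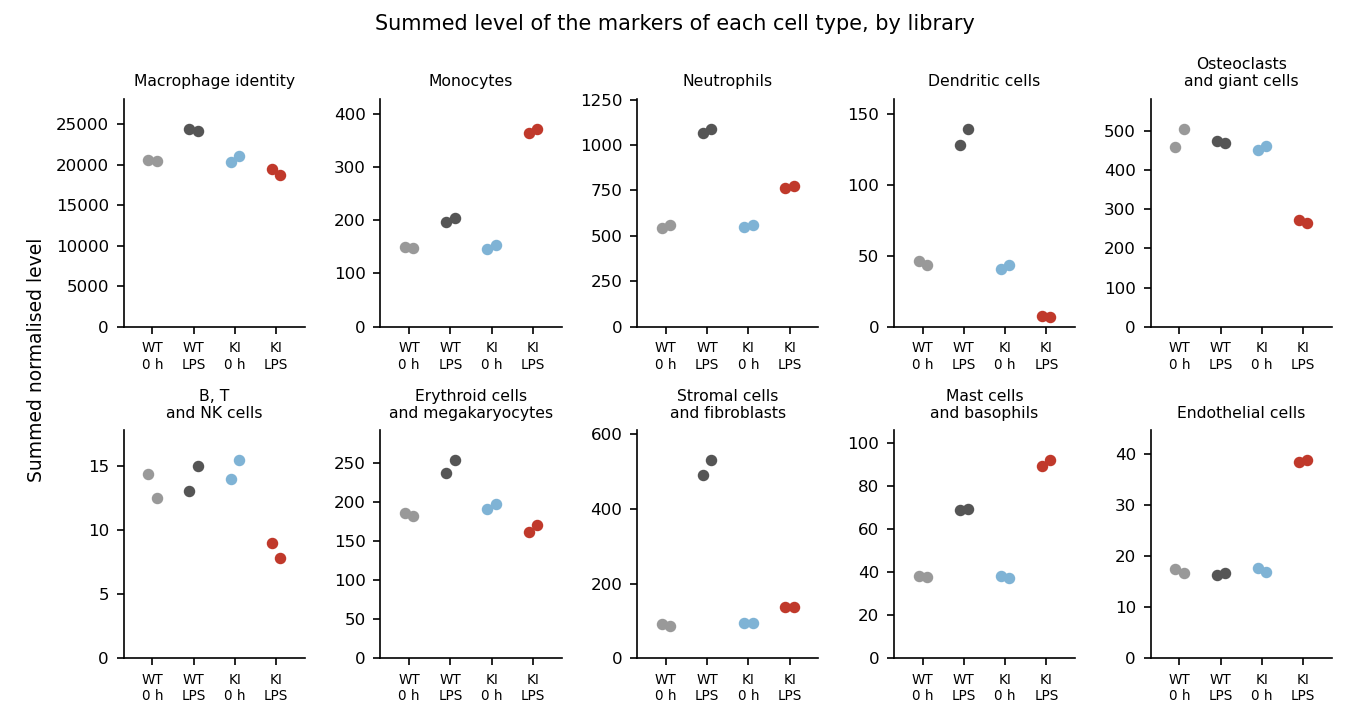
Summed level of the markers of 10 cell types in each library on linear axes from 0, in the 4 groups. Monocyte, mast cell and endothelial sums are highest in the knock-in LPS libraries, and the dendritic cell and osteoclast sums are lowest there.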

How the data were processed

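Gene levels were measured by RNA-seq of total RNA in 8 libraries, 4 groups of 2. The deposited signal values are whole read counts divided by a scaled library size, which is the form of TMM-scaled counts per 1000000 reads, and all values above 0 in each library (100%) were whole multiples of 1 read within a tolerance of 0.001. TopHat2 2.0.9, bedtools, edgeR and the mm9 build are named in the submitters' processing notes, without roles. Not given in the sources used here are the counting rule, the use of strand and the annotation. Between 28.0% and 29.8% of low counts were odd.

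From these values log2(value + 1) was tested with limma 3.58.1 (R 4.3.3), with a variance trend, 4 group means, 4 residual and 19.1 prior degrees of freedom, on 11919 genes with a value of at least 1 in at least 2 libraries. P-values were two-sided, adjusted by the Benjamini-Hochberg method over all 11919, and called under 0.05. Counts were then limited to autosomes, with chromosomes matched by symbol: 21525 genes by RefSeq symbol, 1301 by synonym and 417 by GENCODE symbol, while 123 stayed unmatched. Promoters came from RefSeq (GRCm38.p6). The scripts were tested on simulated data.

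Genes were named by rule: the 15 largest changes in each direction at a mean level of at least 5 without predicted genes, 25 fixed genes, up to 4 members of each list with the largest called change, the 10 genes in each direction with the strongest opposite changes in the genotypes, and the 10 in each direction changed in the knock-in but not in wild type. Other named genes (such as Top2a, Cdk1, Mcm5, Pttg1, Tap1, Psmb9, Calr, Pdia3, Irf9, Txnip, Fbxo32, Tlr4, Ccr2, Ctsk, Hdac1, Hdac2, Rcor1, Cd68, Lyz2 and Mpeg1) were chosen after their values were seen. A few genes that the rule selects are not reported here. The comparison and the gene lists were chosen with earlier results of these data known. Alternatives were other pseudocounts, filters, scalings and variance models, edgeR 4.0.16 and DESeq2 1.42.0 on the recovered reads, a replicate block and leaving out each library.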

Additional observations from a re-analysis of the deposited data

Results flagged for a closer look

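The interaction, which subtracts the wild-type effect of LPS from the knock-in effect, passed the limma test for 3701 autosomal genes in the positive and 3618 in the negative direction. In the genes named with values in both genotypes, the effects of LPS differed between the genotypes as follows, on the log2 scale. Among cytokines and chemokines the interaction was -9.92 for Il1b, -9.02 for Cxcl2, -8.03 for Cxcl10, -6.30 for Tnf, -4.93 for Ifnb1, -4.35 for Il10, -3.17 for Ccl2, -2.16 for Ccl7 and -1.48 for Ccl12, while it was positive for Ccl8 (3.65), Ccl5 (0.27) and the receptor gene Cxcr4 (2.59). Among NF-kB, receptor and immediate-early genes it was -6.02 for Nfkbiz, -5.93 for Egr1, -4.97 for Tnfaip3, -4.52 for Nfkbia, -4.41 for Cd14, -4.05 for Egr2, -2.88 for Dusp1 and -0.64 for Gadd45b. Other LPS products had -6.39 for Irg1 and -4.60 for Cd83, against 3.44 for Saa3.

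Interferon-inducible genes went both ways, with 2.88 for Usp18, 2.27 for Oas3 and 1.58 for Irf7, but -0.96 for Isg15 and -1.50 for Ifit1. Genes lower in the knock-in had -4.31 for Mki67, -3.72 for Gas7, -3.55 for Ifi27l2b, -1.55 for Sqle and -1.17 for Actb. For Ifi27l2b the adjusted p of the interaction was 0.335 with the robust trend and 0.113 without the first wild-type LPS library. Of the genes with opposite changes, the interaction was 4.32 for Lrrc14b, 3.999 for Ccdc127, 3.95 for Ly6a, 3.46 for Olfml3, 3.12 for Pou3f1, 3.07 for Rapgef3, 3.03 for Rhov and 2.88 for Gpr157, and in the other direction -5.26 for Phldb1, -4.66 for Gpr85, -4.60 for Slc7a2 and -4.41 for Pcdh7. Growth restraint genes that fell strongly in wild type had 3.84 for Fbxo32 and 1.44 for Txnip. For Sesn1 it was 0.25, and its adjusted p was over 0.05 under 8 of 20 alternatives.

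Outside the autosomes, the 2 knock-in LPS libraries held Y-linked reads that no other group had, 4993 in the lower of them against at most 2 in the other 6 libraries. These differences carry the same limit as every value of the LPS-labelled knock-in libraries, that label, sex and animal cannot be told apart.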

How the results depend on the processing

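Of the 6 counts of called genes, those in the knock-in stayed within 1.5 times under all alternatives run: edgeR's quasi-likelihood test on the recovered reads gave 3227 higher and 3297 lower, and DESeq2 3189 and 2943. Division by library totals gave 1579 higher and 7416 lower genes in wild type and 5623 positive and 2285 negative interactions, by moving the medians by -0.267 and 0.229. When each library was left out in turn, the knock-in test gave 2619 to 3454 higher and 2667 to 3271 lower genes. In groups left with 1 library, that library was assumed to vary like the others. The replicate numbers share no pairing that the labels state: the correlation of same-numbered deviations between untreated and LPS knock-in libraries was 0.0577, and with the replicate block 3306 genes were higher and 3179 lower. Over the genes named in the text and their alternatives, no called direction reversed, and calls were lost in 24 and gained in 11 of 3977 knock-in comparisons with an alternative, 3 of 620 were lost in wild type and 12 of 958 in the interaction. The causes were not tested. The median of the knock-in changed sign under an alternative for immediate-early genes, lysosomal genes, HIF-1 and glycolysis, heat shock, C-type lectins, chemokine receptors and the LSD1-CoREST list, so no direction is given for these lists. Depth limits genes near a level of 1, such as Il6 and Ifnb1.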
